A study of Rattus norvegicus with 9 samples.

Results

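The genes described here write, remove and read methylation of cytosine in DNA. The list holds 10 names: Dnmt1, Dnmt3a, Dnmt3b, Tet1, Tet2, Tet3, Uhrf1, Tdg, Mbd2 and Gadd45b. They were taken from the deposited gene table by an exact match of the gene name, ignoring case, and where a name repeats the row with the higher mean level was used. Of 30315 loci in the table, 9 carried a name of the list alone. Dnmt1 has no row of its own, because the table joins it with its neighbour S1pr2, a sphingosine-1-phosphate receptor, in 1 locus named Dnmt1,S1pr2. That merged locus is described beside the others but is not counted as a member.

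Methylation of cytosine next to guanine (CpG) is copied to the new strand at replication by Dnmt1, which Uhrf1 recruits to half-methylated sites. New methylation is laid down by Dnmt3a and Dnmt3b. The Tet enzymes oxidise 5-methylcytosine, Tdg excises the oxidised bases so that repair can restore cytosine, Gadd45b is a stress-induced protein described as a partner in demethylation, and Mbd2 binds methylated CpG and brings a repressor complex to it. In salt-sensitive rats this system has been studied as a possible part of the kidney's response to dietary salt.

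The libraries come from the renal outer medulla of 9 salt-sensitive rats (strain MCW SS). The rats form 3 groups of 3, and each rat gave 1 library. The HS_DT rats received GapmeRs (antisense oligonucleotides that direct cleavage of their target RNA) against Dnmt3a and Tet3 into the kidney, at 2 mg/kg each, and ate a 4% NaCl diet for 7 days. The HS_SCR rats received a scrambled GapmeR at 4 mg/kg and the same diet. The rats labelled 0.4% salt had the same surgical preparation, received no GapmeR and were killed for tissue at the time when treatment and high salt would have started. A sample label of HS_DT names one target as Dnmt3 where the treatment protocol names Dnmt3a. No group ate high salt without an oligonucleotide, so diet, scrambled oligonucleotide and the 7 days cannot be told apart in a comparison with 0.4% salt. The sources used here give neither age nor sex.

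Levels are FPKM, fragments per kilobase of transcript scaled for the size of the library, as computed by the authors. How the libraries were scaled is not given. Because FPKM are per length, they allow levels of different genes to be compared. The table gives no read numbers, so depth is unknown and no counting interval can be given. Markers of the thick ascending limb, the main tubule of this zone, were abundant in every library: Umod ran from 381 to 2608 FPKM and the entry SLC12A1 from 451 to 975 FPKM. Both had lower means in HS_SCR than in 0.4% salt, and the change of SLC12A1 was called (log2 change -0.90, limma adjusted p = 0.00638). HS_SCR replicate 3 stood apart from the other 8 libraries on the second principal component of log2(FPKM + 1) (22.1% of variance), at -51.5 against -2.34 to 24. The rat numbers in the labels form a lower and a higher series, whose meaning the labels do not give. All 3 rats of 0.4% salt, HS_SCR replicate 3 and HS_DT replicate 3 belong to the higher series, and the other 4 rats to the lower. For the members, changes that rest on HS_SCR replicate 3 are given with and without it.

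Promoter windows of 9 of the 10 genes were found in the RefSeq sequence table (rat build GRCr8). They are 300 bases long and run from 250 before to 50 after 1 annotated start. The windows of the targeted genes Dnmt3a and Tet3, of Tet2, whose values moved beside theirs, and of Gadd45b, which moved most, are shown because they differ widely in the CpG sites on which these proteins act. Sequences run 5′ to 3′ along the gene's strand and capitals mark CpG.
Dnmt3a (chr6:32598352-32598651, strand +): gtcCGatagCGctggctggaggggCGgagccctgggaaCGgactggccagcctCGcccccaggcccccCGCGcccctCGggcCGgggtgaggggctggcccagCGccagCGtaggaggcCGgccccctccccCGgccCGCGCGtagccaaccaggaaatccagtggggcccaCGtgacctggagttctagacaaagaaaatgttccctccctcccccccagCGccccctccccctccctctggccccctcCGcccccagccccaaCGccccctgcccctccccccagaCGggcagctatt
Tet3 (chr4:117525446-117525745, strand -): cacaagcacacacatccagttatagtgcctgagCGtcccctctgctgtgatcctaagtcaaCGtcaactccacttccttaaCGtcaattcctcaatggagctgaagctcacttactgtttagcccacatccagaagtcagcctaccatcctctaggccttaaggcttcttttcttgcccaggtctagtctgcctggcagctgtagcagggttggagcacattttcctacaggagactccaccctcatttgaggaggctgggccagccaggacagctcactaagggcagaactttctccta
Tet2 (chr2:224746137-224746436, strand -): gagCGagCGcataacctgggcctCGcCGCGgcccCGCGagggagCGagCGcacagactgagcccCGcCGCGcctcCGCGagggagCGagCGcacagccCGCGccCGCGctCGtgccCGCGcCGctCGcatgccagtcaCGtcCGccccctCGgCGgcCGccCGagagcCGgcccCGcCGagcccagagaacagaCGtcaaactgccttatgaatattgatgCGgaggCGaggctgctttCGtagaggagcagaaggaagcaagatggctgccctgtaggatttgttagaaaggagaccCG
Gadd45b (chr7:9430669-9430968, strand -): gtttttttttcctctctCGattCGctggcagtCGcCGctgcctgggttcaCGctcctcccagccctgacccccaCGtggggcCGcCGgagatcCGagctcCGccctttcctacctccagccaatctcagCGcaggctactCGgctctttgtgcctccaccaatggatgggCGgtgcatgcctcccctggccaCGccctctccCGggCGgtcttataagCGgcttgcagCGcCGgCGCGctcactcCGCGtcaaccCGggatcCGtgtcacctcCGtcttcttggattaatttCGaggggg

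The Tet2 window held 39 CpG, more than 96.2% of 33469 rat promoters of the same length, and the Mbd2 window also held 39. Gadd45b had 27, Dnmt3a and Tdg 21 each, Dnmt1 17 and Uhrf1 8. The windows of Tet3 and Tet1 held 3 CpG each, under the median of 7 over all promoters. In the Tet1 window the annotated start lies on the letters ATG, so it may be a start of translation. Its CpG and motif counts therefore cannot be read as those of the Tet1 promoter. Whether the Tet3 window covers a promoter in use was not tested. The deposited table lists several transcription starts for most of these genes (7 for Dnmt3a, 6 for Tet2 and 5 for Tet3), and the windows cover 1 of them. Short motifs, counted on both strands, were looked for in each window, and the GC box overlaps CpG by its letters. A GC box (GGGCGG) was present in 33.1% of all promoters and occurred 4 times in Mbd2, 3 times in Gadd45b, 2 times each in Dnmt3a and Tet2, and once each in Dnmt1, Tet1 and Uhrf1. The cAMP response element TGACGTCA, present in 1.8% of all promoters, was found in Tdg alone among the 9. The E2F letters TTTGGCGC or TTTCGCGC, present in 0.8%, were found in Dnmt1 alone. The CCAAT box (CCAAT), present in 37.5%, occurred 2 times each in Gadd45b and Dnmt1 and once each in Uhrf1, Tdg and Tet1.

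**Figure D1:**
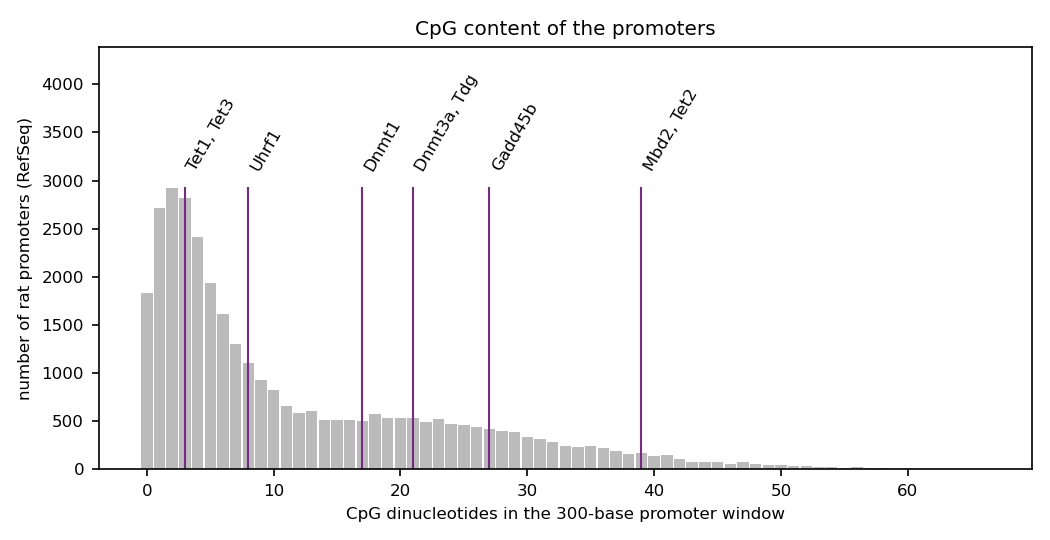
Number of CpG dinucleotides in 300-base promoter windows of rat genes (grey bars, RefSeq, 33469 promoters). Vertical lines mark the 9 windows found for the genes described, from 3 CpG in Tet1 and Tet3 to 39 in Mbd2 and Tet2. The annotated start of the Tet1 window lies on an ATG, so that window may not be its promoter.

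The members spanned a wide range of levels. Averaged over the 9 libraries, Mbd2 stood above 94.1% of the 14338 loci whose mean reached 1 FPKM, which are those tested here, Tdg above 67.0% and Gadd45b above 66.5%. Dnmt3a stood above 47.6% of them, Tet3 above 39.3%, Tet2 above 38.6% and Uhrf1 above 24.1%. Dnmt3b and Tet1 averaged under 1 FPKM and were not tested across loci, which left 7 of the 9 members. The merged Dnmt1,S1pr2 locus stood above 72.8%.

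**Figure D2:**
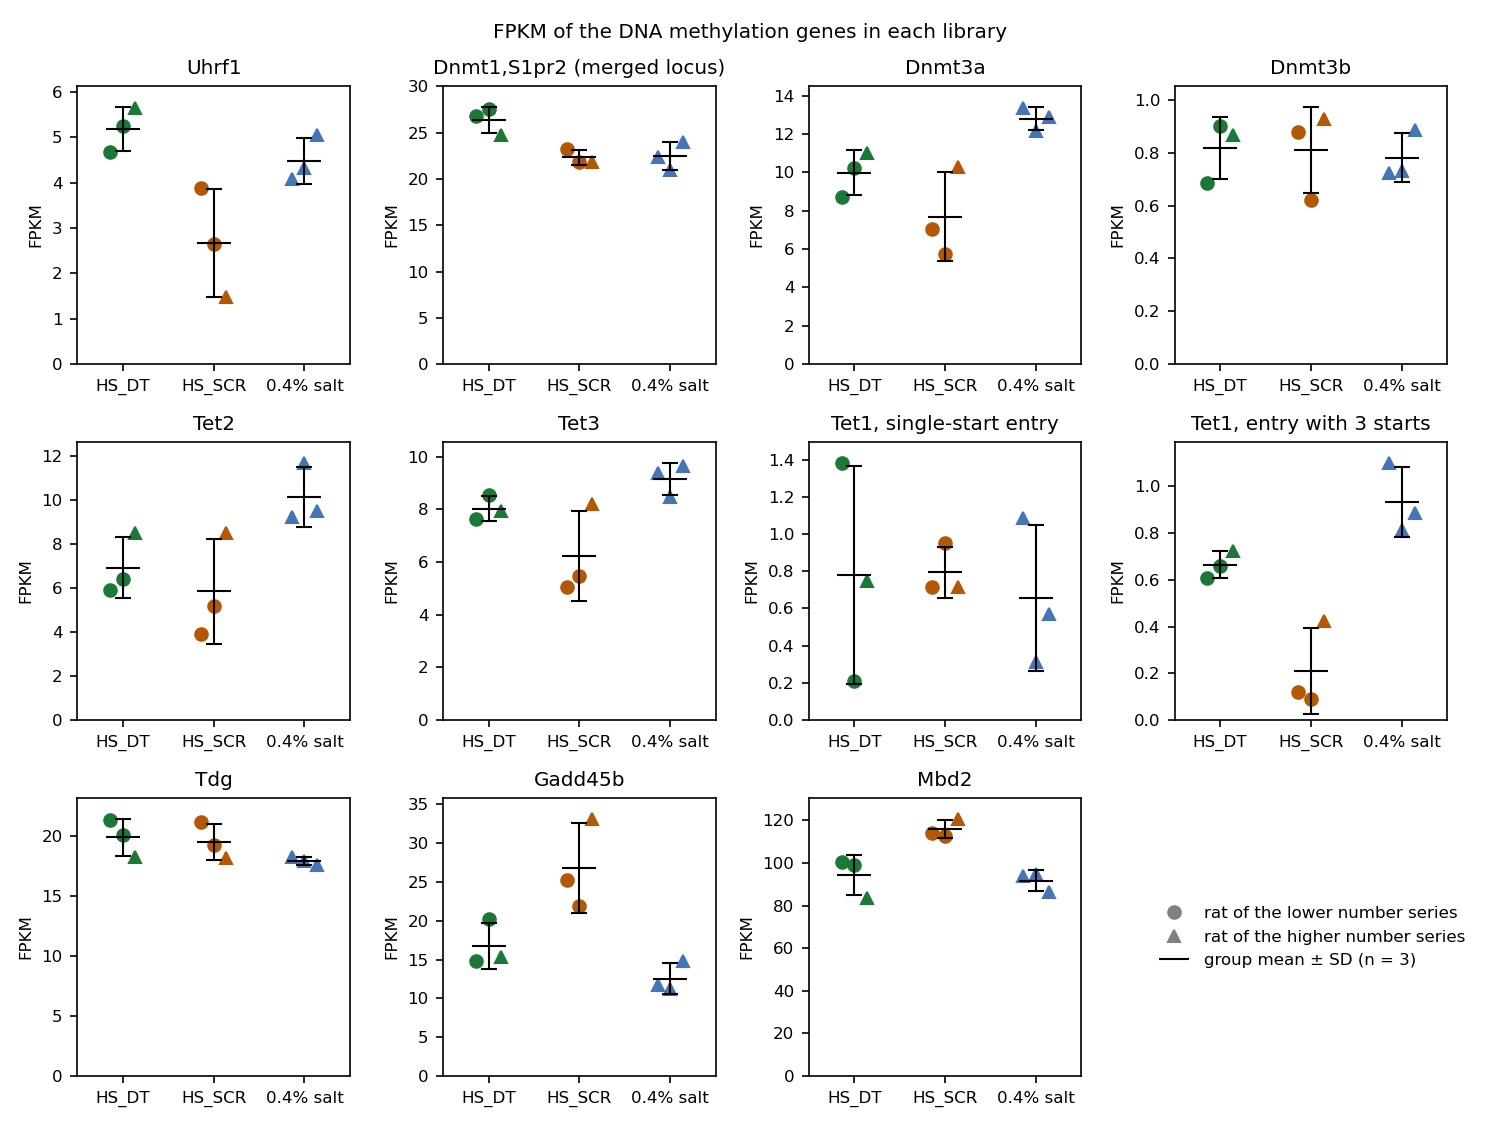
FPKM of each gene in the 9 libraries (points; circles are rats of the lower number series and triangles of the higher), by group from HS_DT through HS_SCR to 0.4% salt, with the group mean and SD (n = 3). Dnmt3a, Tet2, Tet3 and Uhrf1 have their lowest group mean in HS_SCR, and Gadd45b and Mbd2 their highest.

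Against 0.4% salt, the HS_SCR libraries held less RNA of the de novo enzyme Dnmt3a and more RNA of Gadd45b and Mbd2. Changes were tested with limma on log2(FPKM + 1) over the 14338 loci, and a locus is called changed under an adjusted p (Benjamini-Hochberg) of 0.05. Of the 7 tested members, 2 rose, 1 fell and 4 did not pass, where 13.1% of all tested loci were called in this comparison (8.20% higher and 4.88% lower). The FPKM ranges of the groups did not overlap for 6 of the 7 members, against 33.5% of all tested loci. An unadjusted p under 0.05 was found for 6 of the 7, against 32% of all tested loci. The members were chosen with earlier results of these data known. The shares over all tested loci are therefore a description and do not test whether the set is unusual. The median log2 change of the 7 was -0.51, and that of all tested loci 0.02. With 3 libraries in each group, the exact permutation p (two-sided) of a single value cannot go under 0.1.

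Dnmt3a (rn5 chromosome 6, 38011928 to 38155093) is one of the 2 transcripts targeted in HS_DT. It had 8.72, 10.3 and 11.02 FPKM in HS_DT replicates 1 to 3. In HS_SCR replicates 1 to 3 it had 7.05, 5.75 and 10.3 FPKM, and in 0.4% salt 13.4, 12.2 and 12.9 FPKM. Every high-salt library lay below every 0.4% salt library, and HS_SCR replicate 3 lay among the HS_DT libraries. The means were 9.999 ± 1.17 FPKM in HS_DT, 7.70 ± 2.33 in HS_SCR and 12.8 ± 0.624 in 0.4% salt (SD, n = 3 each). HS_SCR lay below 0.4% salt, with a log2 change of -0.70 ± 0.18 (SE; limma adjusted p = 0.0367).

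Dnmt3b (chromosome 3, 155509917 to 155572966), the other de novo enzyme, had low RNA levels in every library. It had 0.685, 0.902 and 0.869 FPKM in HS_DT, 0.880, 0.623 and 0.929 in HS_SCR and 0.725, 0.732 and 0.888 in 0.4% salt. The 3 groups overlapped fully, with means of 0.819, 0.811 and 0.782 FPKM. Dnmt3a had the higher RNA level of the de novo enzymes in all 9 libraries, and its lower level in HS_SCR had no matching difference in Dnmt3b (log2 change 0.02, exact permutation p = 0.9).

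Tet2 and Tet3, which oxidise 5-methylcytosine, had similar levels to each other and their lowest means in HS_SCR. Tet3 (chromosome 4, 179650809 to 179747550), the other targeted transcript, had 7.62, 8.54 and 7.92 FPKM in HS_DT. It had 5.04, 5.47 and 8.20 FPKM in HS_SCR and 9.38, 8.47 and 9.64 FPKM in 0.4% salt. The HS_SCR and 0.4% salt ranges did not overlap, and HS_SCR replicate 3 again lay within the HS_DT range. HS_SCR stood at a log2 change of -0.51 ± 0.15 from 0.4% salt, which did not pass (limma adjusted p = 0.0599).

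Tet2 (chromosome 2, 257252162 to 257336972) had 5.89, 6.40 and 8.47 FPKM in HS_DT. In HS_SCR it had 3.88, 5.16 and 8.49 FPKM, and in 0.4% salt 9.21, 11.7 and 9.49 FPKM. All 6 high-salt libraries lay below all 3 libraries of 0.4% salt, and in each high-salt group the rat of the higher number series had the highest level. HS_SCR averaged 5.85 ± 2.38 FPKM and 0.4% salt 10.1 ± 1.35 (log2 change -0.75 ± 0.24), which did not pass (limma adjusted p = 0.0685). With the replicate number as a block Tet2 was called (limma adjusted p = 0.0469); the labels do not say that the numbers pair rats.

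Tet1, the third enzyme of the family, appears as 2 entries at the same position (chromosome 20, 29197542 to 29267955), and they behaved differently. The entry with the higher mean, which has a single transcription start, had 1.38, 0.211 and 0.748 FPKM in HS_DT, 0.718, 0.951 and 0.714 in HS_SCR and 1.09, 0.314 and 0.572 in 0.4% salt. Its groups overlapped (HS_SCR against 0.4% salt, log2 change 0.14, exact permutation p = 0.5). The entry with 3 starts had 0.609, 0.660 and 0.726 FPKM in HS_DT, 0.118, 0.0900 and 0.423 in HS_SCR and 1.10, 0.814 and 0.886 in 0.4% salt. Its groups did not overlap in any of the 3 comparisons, with HS_SCR lowest and 0.4% salt highest. With no filter on low values, the entry with 3 starts was lower in HS_SCR, at a log2 change of -0.68 ± 0.11 from 0.4% salt (limma adjusted p = 0.0174 over 22911 loci). Summed over both entries, Tet1 averaged 1.45 ± 0.562 FPKM in HS_DT, 1.00 ± 0.154 in HS_SCR and 1.59 ± 0.543 in 0.4% salt, and the change between HS_SCR and 0.4% salt turned to -0.35 (exact permutation p = 0.2).

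Summed over Tet1, Tet2 and Tet3, the family had 16.4 ± 1.29 FPKM in HS_DT, 13.1 ± 4.22 in HS_SCR and 20.9 ± 0.359 in 0.4% salt. Tet3 made up 49.2% of the sum in HS_DT, 48.2% in HS_SCR and 43.9% in 0.4% salt. Tet2 made up 42.0%, 43.9% and 48.4% in these groups. The Tet3 to Tet2 ratio within a library averaged 1.19 ± 0.220 in HS_DT, 1.11 ± 0.171 in HS_SCR and 0.920 ± 0.169 in 0.4% salt, with overlapping groups (exact permutation p from 0.3 to 0.9 over the 3 comparisons). The Dnmt3a to Tet3 ratio averaged 1.25 ± 0.130, 1.23 ± 0.174 and 1.40 ± 0.0532 in the same order. The difference between HS_DT and HS_SCR in the log2 Dnmt3a to Tet3 ratio was 0.02 (exact permutation p = 1).

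Uhrf1 (chromosome 9, 9729980 to 9749712), which guides maintenance methylation, had 4.67, 5.25 and 5.65 FPKM in HS_DT. It had 3.88, 2.65 and 1.48 FPKM in HS_SCR and 4.08, 4.33 and 5.05 FPKM in 0.4% salt. The HS_SCR libraries lay below all 6 others, and here HS_SCR replicate 3 was the lowest of all 9. HS_SCR stood at a log2 change of -0.63 ± 0.22 from 0.4% salt, which did not pass (limma adjusted p = 0.0912). The summed level of 20 cell cycle genes was also lowest in HS_SCR replicate 3, at 110 FPKM. Their sum ran from 174 to 214 FPKM in HS_DT, from 110 to 194 in HS_SCR and from 165 to 198 in 0.4% salt. All 20 cell cycle genes were tested. In HS_SCR against 0.4% salt, Mcm7, a replication helicase subunit, rose, Tyms, which makes thymidylate, fell, and the other 18 missed the threshold. The median log2 change of the 20 was -0.31, and 13.1% of all tested loci were called in this comparison. The part of proliferating cells in the Uhrf1 values was not tested. In bulk tissue, fewer cells of a type and less RNA per cell cannot be told apart.

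The merged Dnmt1,S1pr2 locus (chromosome 8, 21978829 to 22052504) had 26.8, 27.6 and 24.8 FPKM in HS_DT, 23.2, 21.9 and 21.9 in HS_SCR and 22.4, 21.0 and 23.99 in 0.4% salt. HS_SCR and 0.4% salt overlapped (log2 change -0.01 ± 0.08, limma adjusted p = 0.966), with a 95% interval of -0.19 to 0.18. The ratio of Dnmt3a to this locus averaged 0.381 ± 0.0600 in HS_DT, 0.346 ± 0.110 in HS_SCR and 0.572 ± 0.0307 in 0.4% salt. All 6 high-salt libraries had a lower Dnmt3a to Dnmt1,S1pr2 ratio than any 0.4% salt library (exact permutation p = 0.1 for either high-salt group against 0.4% salt). Reads of S1pr2 cannot be separated from those of Dnmt1 in this locus.

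Gadd45b (chromosome 7, 11813535 to 11815565) showed the largest change among the tested members. It had 14.8, 20.2 and 15.3 FPKM in HS_DT, 25.2, 21.9 and 33.1 in HS_SCR and 11.7, 11.2 and 14.8 in 0.4% salt. The 3 groups did not overlap in any pair, with HS_SCR highest and 0.4% salt lowest. The lowest HS_DT value (14.82) and the highest 0.4% salt value (14.79) were nearly equal. Gadd45b was 2.13-fold higher in HS_SCR than in 0.4% salt by the ratio of means (log2 change 1.02 ± 0.18, limma adjusted p = 0.0123). It was also the only one of the 7 tested members called by the F test over the 3 groups (limma adjusted p = 0.0337), which called 5.61% of all tested loci. The summed level of 20 immediate early and stress response genes ran from 602 to 1065 FPKM in HS_DT, from 630 to 1073 in HS_SCR and from 516 to 611 in 0.4% salt. Of the 19 tested genes of that list, 4 rose in HS_SCR against 0.4% salt and 15 missed the threshold (median log2 change 0.47). Of all tested loci, 8.20% rose in that comparison. Myc (1.16), Maff (1.14), Ier3 (0.98) and Jund (0.67) were the 4 that rose.

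Mbd2 (chromosome 18, 64990333 to 65061114) was the most abundant member. It had 100.6, 99.3 and 83.5 FPKM in HS_DT, 114, 113 and 121 in HS_SCR and 93.9, 95.1 and 86.3 in 0.4% salt. The HS_SCR libraries lay above the other 6. Mbd2 rose in HS_SCR against 0.4% salt (log2 change 0.33 ± 0.09, limma adjusted p = 0.0463), with means of 116 ± 4.36 FPKM in HS_SCR and 91.7 ± 4.79 in 0.4% salt. Tdg (chromosome 7, 27294787 to 27333074), the glycosylase, had 21.3, 20.0 and 18.2 FPKM in HS_DT, 21.1, 19.2 and 18.1 in HS_SCR and 18.2, 17.9 and 17.6 in 0.4% salt. Its HS_SCR and 0.4% salt ranges overlapped, and its change of 0.11 ± 0.09 did not pass (limma adjusted p = 0.396; 95% interval -0.08 to 0.31).

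**Figure D3:**
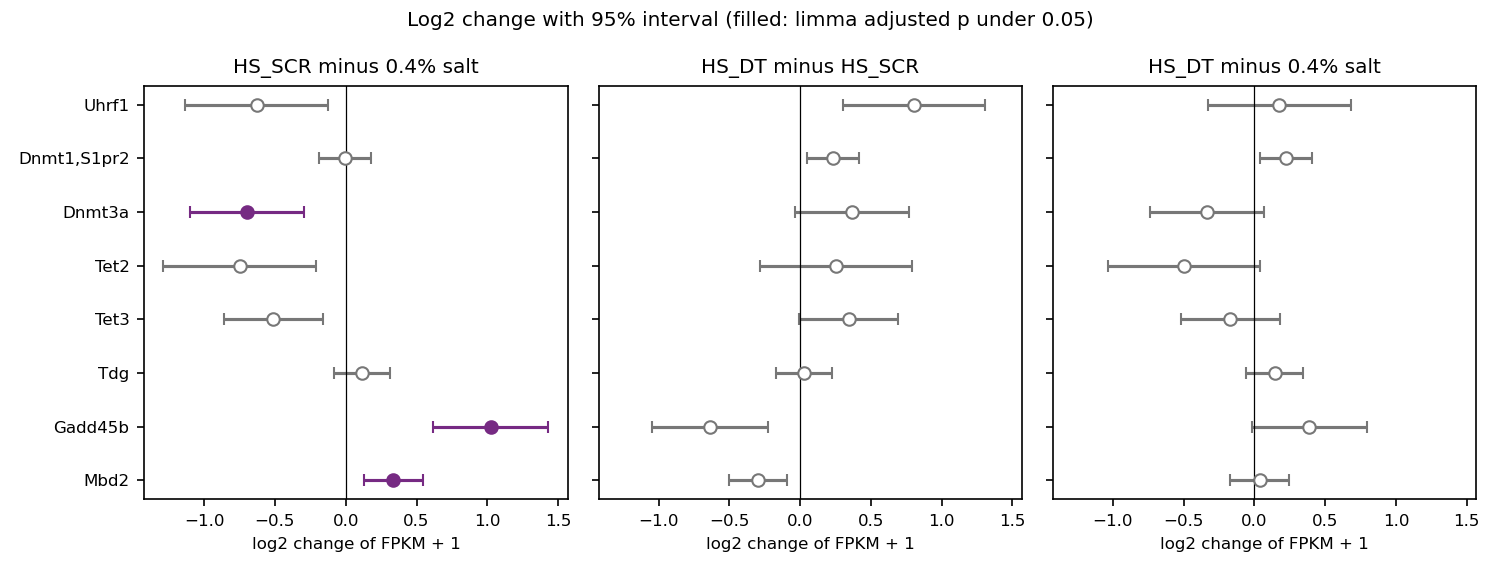
Log2 change of FPKM + 1 with its 95% interval for the 7 tested members and the merged Dnmt1,S1pr2 locus in the 3 comparisons; filled points have a limma adjusted p under 0.05. In HS_SCR minus 0.4% salt Dnmt3a is filled below 0 and Gadd45b and Mbd2 above it, and no point is filled in the comparisons of HS_DT.

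The calls in HS_SCR against 0.4% salt were of unequal strength. Gadd45b kept its call under 20 of 23 alternative settings, Dnmt3a under 10 and Mbd2 under 7. The call of Dnmt3a ended when any library other than HS_SCR replicate 3 was left out (limma adjusted p from 0.0503 to 0.116). These include the HS_DT libraries, which are not part of this comparison. A model term for lower or higher rat numbers also ended the Dnmt3a call (log2 change -0.43, limma adjusted p = 0.112). The call of Mbd2 ended under 16 of the 23 settings. Among these were quantile normalization (log2 change 0.17, limma adjusted p = 0.315) and median-ratio rescaling (0.30, 0.0618). Settings that left the scaling as it was ended it too. Examples are no filter on low values (limma adjusted p = 0.055) and the model term for rat numbers (0.139). Leaving out any 1 library of 0.4% salt also ended it (limma adjusted p from 0.112 to 0.125). The call of Gadd45b ended without 0.4% salt replicate 1 (limma adjusted p = 0.0544), without 0.4% salt replicate 2 (0.0606) and with the proximal tubule score of each library as a covariate (log2 change 0.77, limma adjusted p = 0.279). Proximal tubule markers moved in the same comparison: 18 of 20 were found, and their sum ran from 454 to 1970 FPKM in HS_DT, from 140 to 636 in HS_SCR and from 1098 to 2894 in 0.4% salt. With that score as a covariate Dnmt3a stood at -0.77 (limma adjusted p = 0.303) and Mbd2 at 0.19 (0.614), and none of the 7 members was called. No locus at all (0 of 14338) was called in that fit, so the loss is not particular to the members. The score ran from 4.77 to 6.09 in 0.4% salt and from 2.07 to 3.93 in HS_SCR. It does not overlap between these groups, so that fit cannot separate the score from the group. Macrophage and myeloid markers, 16 of 18 found, summed to 2890 to 3261 FPKM in HS_DT, 3156 to 4357 in HS_SCR and 1790 to 2056 in 0.4% salt, and 10 of 16 tested rose in HS_SCR against 0.4% salt. Erythroid markers (5 of 6 tested rose) summed to 2396 to 3240 FPKM in HS_DT, 1882 to 10669 in HS_SCR and 687 to 1051 in 0.4% salt. Neutrophil markers (2 of 3 tested rose) summed to 29.5 to 63.9 FPKM in HS_DT, 78.7 to 449 in HS_SCR and 7.32 to 9.70 in 0.4% salt. Of 14 thick ascending limb markers 4 fell and 1 rose (median log2 change -0.57), with sums of 2720 to 3714 FPKM in HS_DT, 1467 to 3451 in HS_SCR and 3052 to 4703 in 0.4% salt. Beside these counts, 8.20% of all tested loci rose and 4.88% fell in HS_SCR against 0.4% salt. The part of the cell types above in the changes of the members was not tested. No macrophage, myeloid or proximal tubule marker found in the table was at 0 in all libraries.

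Without HS_SCR replicate 3, 5 of the 7 members were called against 0.4% salt, where 36.2% of all tested loci were called. Dnmt3a (-0.91), Tet2 (-1.01) and Tet3 (-0.70) were then lower in HS_SCR and Gadd45b (0.86) and Mbd2 (0.30) higher, with limma adjusted p from 0.00219 to 0.0379. The HS_SCR rats left in that fit are all of the lower number series and the 0.4% salt rats all of the higher, so group and series cannot be told apart there. Within the higher series, HS_SCR replicate 3 alone is set against the 3 libraries of 0.4% salt and is assumed to vary like them. That fit compares 1 library, the one that stands apart, and does not test the HS_SCR group. In that library Gadd45b (1.34, limma adjusted p = 0.0275) was higher and Uhrf1 (-1.14, 0.0271) lower than in 0.4% salt, where 14% of all tested loci were called. Dnmt3a (-0.29, limma adjusted p = 0.117), Tet2 (-0.22, 0.372), Tet3 (-0.14, 0.421) and Mbd2 (0.40, 0.0621) did not pass there. The within-series fits were chosen after these data were seen.

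The comparison of HS_DT with HS_SCR asks what the GapmeRs against Dnmt3a and Tet3 changed on the same diet. Both targeted transcripts had higher means in HS_DT than in HS_SCR, and neither passed the test. Dnmt3a differed by a log2 change of 0.37 (95% interval -0.04 to 0.77, limma adjusted p = 0.303), and Tet3 by 0.34 (-0.01 to 0.69, 0.271). The files hold no protein levels or enzyme activities. None of the 7 tested members was called by limma, 3 had an unadjusted p under 0.05 (19.1% of all tested loci had one), and 0.00697% of all tested loci were called. The FPKM ranges of HS_DT and HS_SCR did not overlap for 3 of the 7, against 21.6% of all tested loci, and these were the same 3 genes.

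Those 3 were Uhrf1, Gadd45b and Mbd2, whose HS_DT values lay on the 0.4% salt side of HS_SCR. Uhrf1 averaged 5.19 ± 0.490 FPKM in HS_DT and 2.67 ± 1.20 in HS_SCR, a log2 change of 0.81 ± 0.22 (limma adjusted p = 0.117). Gadd45b averaged 16.8 ± 2.97 FPKM in HS_DT and 26.8 ± 5.78 in HS_SCR (-0.64 ± 0.18, limma adjusted p = 0.124). Mbd2 averaged 94.5 ± 9.52 FPKM in HS_DT and 116 ± 4.36 in HS_SCR (-0.30 ± 0.09, limma adjusted p = 0.147). The merged Dnmt1,S1pr2 locus, with 26.4 ± 1.44 FPKM in HS_DT and 22.3 ± 0.790 in HS_SCR, also had separate ranges and did not pass (0.23 ± 0.08, limma adjusted p = 0.180). Since HS_SCR serves both as the comparison here and as the high-salt group above, a library of HS_SCR moves both results in opposite directions.

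Without HS_SCR replicate 3, Dnmt3a (0.57, limma adjusted p = 0.0212), Tet3 (0.53, 0.0143) and Uhrf1 (0.55, 0.0439) were called, all higher in HS_DT, in a fit that called 16% of all tested loci. Tet2 (0.52, limma adjusted p = 0.0788), Gadd45b (-0.48, 0.0828) and Mbd2 (-0.27, 0.0886) did not pass in that fit. Within the lower rat number series, HS_DT replicates 1 and 2 were set against HS_SCR replicates 1 and 2. The rats given no GapmeR, all of the higher series, stayed in that fit and entered its estimate of spread. Its p-values therefore do not rest on the lower series alone. Tet3 (0.54, limma adjusted p = 0.0367) was called there and Dnmt3a (0.50, 0.0538) was not, where 7.37% of all tested loci were called. Within the higher series, a single library of each group, HS_DT replicate 3 and HS_SCR replicate 3 had 11.02 and 10.3 FPKM of Dnmt3a and 7.92 and 8.20 FPKM of Tet3. No lower level of either targeted transcript in HS_DT was called in these fits. Uhrf1 was also called higher in HS_DT without HS_SCR replicate 1, at a log2 change of 1.04, in a fit that called 1.26% of all tested loci.

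HS_DT was then set against 0.4% salt, which differs from it in diet, oligonucleotides and time. None of the 7 members was called by limma, none had an unadjusted p under 0.05 (7.49% of all tested loci had one), and 0% of all tested loci were called. The ranges did not overlap for 4 of 7 members, Dnmt3a, Tet2, Tdg and Gadd45b, against 23.8% of all tested loci. Tet2 averaged 6.92 ± 1.37 FPKM in HS_DT and 10.1 ± 1.35 in 0.4% salt (log2 change -0.50 ± 0.24, limma adjusted p = 0.693). Dnmt3a stood at -0.33 ± 0.18 (limma adjusted p = 0.730), Gadd45b at 0.39 ± 0.18 (0.682) and Tdg at 0.14 ± 0.09 (0.763). Uhrf1 (0.18 ± 0.22) and Mbd2 (0.04 ± 0.09) had overlapping ranges. With library weights, which give more variable libraries less influence, Dnmt3a (-0.32), Tet2 (-0.55) and Gadd45b (0.60) were called, with limma adjusted p from 0.0213 to 0.0389. The merged Dnmt1,S1pr2 locus (0.28, limma adjusted p = 0.0171) was called too, and 12.6% of all tested loci were called with these weights.

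**Figure D4:**
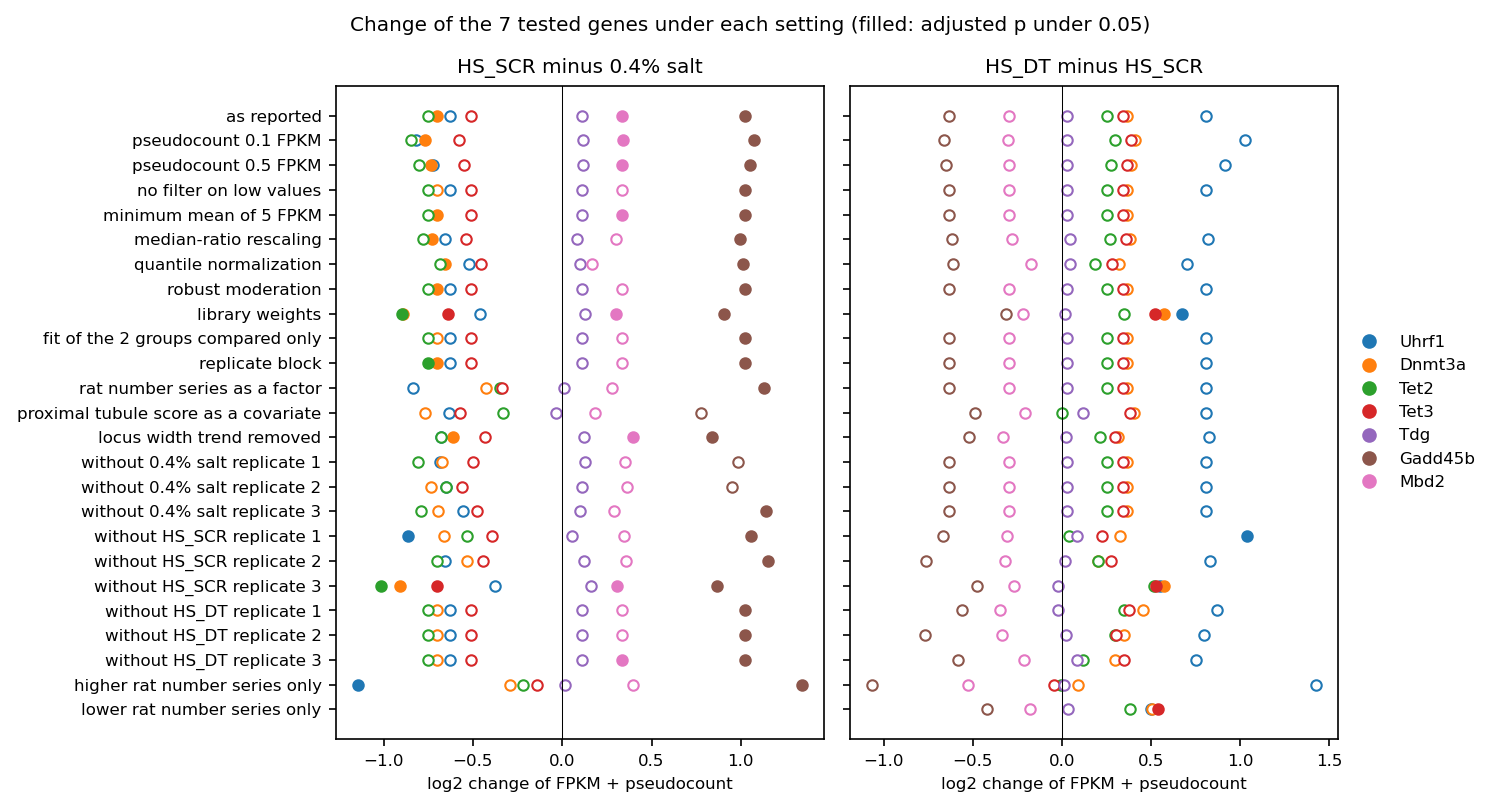
Log2 change of the 7 tested members under each setting (rows) in HS_SCR minus 0.4% salt (left) and HS_DT minus HS_SCR (right); filled points have an adjusted p under 0.05. At left Gadd45b stays between 0.77 and 1.34, and Dnmt3a, Tet2, Tet3 and Uhrf1 stay below 0 throughout. The wide spread at right is in the row for the higher rat number series, which holds 1 library per group.

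The other genes of the pathway were followed in 4 lists of 72 names, of which 58 were tested. In HS_SCR against 0.4% salt, 3 of the 58 rose, 4 fell and 51 did not pass, so that 12.1% were called beside 13.1% of all tested loci. In the list of methyl donor and cofactor metabolism 3 of 19 fell, none rose and 16 missed the threshold. Its median log2 change was -0.35, against 0.02 over all tested loci. Mthfd1, which interconverts folate one-carbon units, averaged 15.5 ± 2.17 FPKM in HS_SCR and 27.7 ± 5.71 in 0.4% salt (log2 change -0.79 ± 0.16, limma adjusted p = 0.0193). Shmt1, the serine hydroxymethyltransferase of the cytosol, fell by 0.63 on the log2 scale (limma adjusted p = 0.0236), and Ahcyl2, a relative of the enzyme that clears S-adenosylhomocysteine, by 0.54 (limma adjusted p = 0.0226). The summed level of this list ran from 868 to 907 FPKM in HS_DT, from 814 to 823 in HS_SCR and from 899 to 1084 in 0.4% salt, so the HS_SCR libraries lay below all others. Idh2, the most abundant gene of the list, weighs most in that sum. It averaged 290 ± 20.7 FPKM in HS_SCR and 394 ± 57.4 in 0.4% salt, and was not called (limma adjusted p = 0.0586). Mthfd1 was highest in 0.4% salt replicate 2 (34.2 FPKM), the library with the highest sum of proximal tubule markers (2894 FPKM), and those markers had a median log2 change of -2.84 in HS_SCR against 0.4% salt. Their part in the change of this list was not tested.

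Among genes of demethylation and base excision repair, 1 of 14 rose, 1 fell and 12 did not pass (median 0.07). Of all tested loci, 13.1% were called in this comparison, HS_SCR against 0.4% salt. Apex1, the endonuclease that cuts at the site Tdg leaves, averaged 38.6 ± 1.23 FPKM in HS_SCR and 28.8 ± 0.643 in 0.4% salt (log2 change 0.41 ± 0.07, limma adjusted p = 0.0104). Ogt, a sugar transferase that binds Tet proteins, averaged 32.4 ± 3.13 FPKM in HS_SCR and 42.6 ± 3.22 in 0.4% salt (-0.39 ± 0.09, limma adjusted p = 0.0327). Nanog and Prdm14, both of pluripotent cells, were listed at 0 in every library. Of 15 methyl-CpG binding proteins and their complex partners, Mta1, a subunit of the repressor complex that Mbd2 joins, rose (0.34 ± 0.09, limma adjusted p = 0.0365) and 14 did not pass (median -0.09). Of 10 writers and cofactors, Dmap1, a partner of Dnmt1, rose (0.38 ± 0.10, limma adjusted p = 0.0417) and 9 did not pass (median 0.11). Adjusted for the proximal tubule score, none of the 58 genes was called, nor was any of the 14338 loci. Without HS_SCR replicate 3, 25 of the 58 were called, beside 36.2% of all tested loci.

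In HS_DT against HS_SCR, and in HS_DT against 0.4% salt, limma called none of the 58. The methyl donor list had a median log2 change of 0.22 in HS_DT against HS_SCR and of -0.14 in HS_DT against 0.4% salt, where all tested loci had medians of 0.00 and 0.01. Mthfd1 averaged 23.4 ± 3.09 FPKM in HS_DT and 15.5 ± 2.17 in HS_SCR (0.57 ± 0.16, limma adjusted p = 0.127). Apex1 averaged 35.7 ± 1.60 FPKM in HS_DT and 28.8 ± 0.643 in 0.4% salt (0.30 ± 0.07, limma adjusted p = 0.333). In the other lists, the smallest p in HS_DT against HS_SCR belonged to Mta1 (-0.31), Trim28, a corepressor scaffold (-0.25), and Apobec1, a cytidine deaminase (-0.33). In HS_DT against 0.4% salt it belonged to Dmap1 (0.29), Mbd4, a glycosylase that binds methylated CpG (-0.38), and, in the methyl donor list, Ahcyl2 (-0.28).

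**Figure D5:**
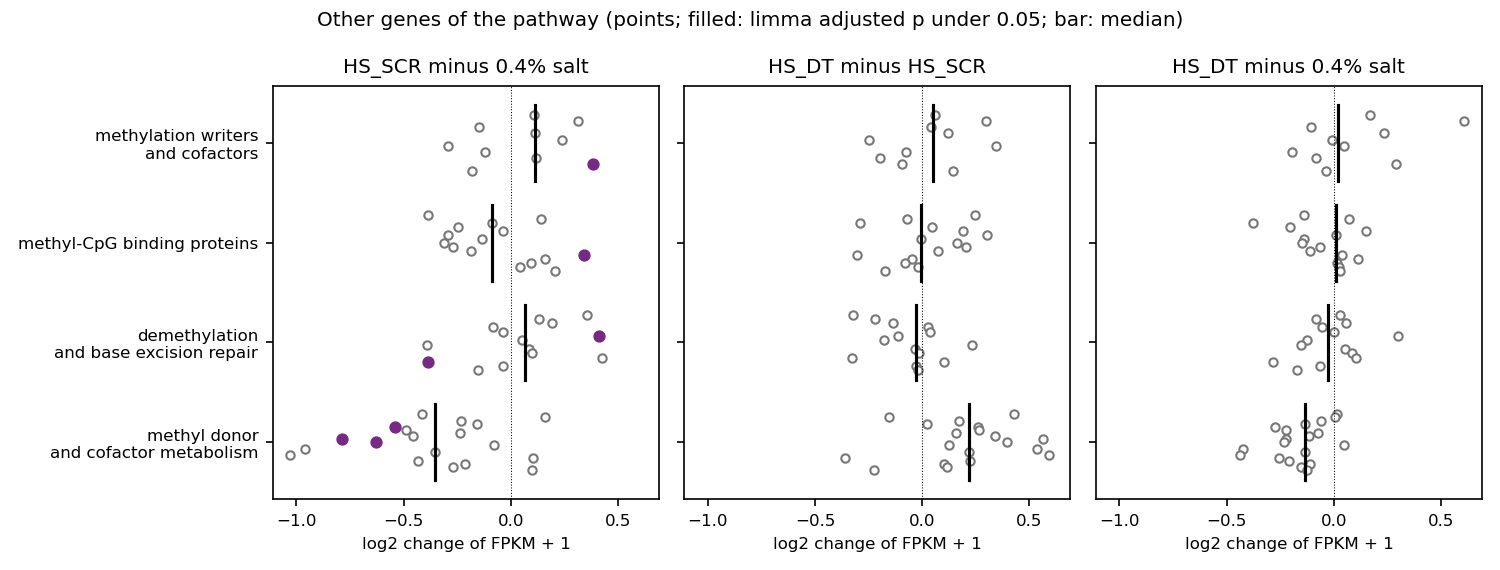
Log2 change of FPKM + 1 of each tested gene of the 4 wider lists (points) in the 3 comparisons; filled points have a limma adjusted p under 0.05 and the bar is the median of the list. In HS_SCR minus 0.4% salt 7 points are filled, and the methyl donor list is centred at -0.35.

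The genes whose pattern over the 9 libraries was most like that of a member were sought among the 9268 single-name loci that averaged 5 FPKM or more. Likeness was the Pearson r of log2(FPKM + 1), given as a description because the genes were picked for it and the libraries fall into 3 groups. Dnmt3a was most like Pard3b (r = 0.988), a cell polarity gene, Stx17 (0.986), which acts in membrane fusion, and Uprt (0.984). Pard3b averaged 6.30 FPKM in HS_DT, 5.05 in HS_SCR and 8.16 in 0.4% salt. Tet3 was most like Senp1 (r = 0.979), a SUMO protease, Slc44a1 (0.977), a choline transporter, and Nfat5 (0.973), the transcription factor of the response to tonicity. Nfat5 averaged 49.8 FPKM in HS_DT, 40.7 in HS_SCR and 54.5 in 0.4% salt. Uhrf1 was most like Stat2 (r = 0.975), of interferon signalling, Top2a (0.969), a topoisomerase of dividing cells, and MGC108823 (0.968). Top2a averaged 10.2 FPKM in HS_DT, 6.32 in HS_SCR and 9.85 in 0.4% salt, and had its lowest value, 3.19 FPKM, in HS_SCR replicate 3.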

How the data were processed

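The authors deposited FPKM for 30315 loci in 1 table; per the submitters' processing notes, Trim Galore 0.2.5, Cufflinks 2.2.1 and build rn5 were used. For aligner, annotation and scaling, nothing is given in the sources used here. Columns were assigned to the 9 libraries through the rat numbers in the titles; 1 further column repeats HS_DT replicate 3 at all 30315 loci and was not used. The tests used log2(FPKM + 1) at the 14338 loci averaging 1 FPKM or more, in limma 3.58.1 in R 4.3.3 (moderation that follows the mean level) in 1 fit of the 3 groups, unpaired, with 6 residual degrees of freedom (8.54 after moderation). Tests were two-sided and p-values were adjusted by Benjamini-Hochberg over all tested loci. The exact permutation tests compare 3 with 3 libraries. Each library is a separate rat. The fit was tested on simulated data. Locus positions are those of the table.

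All members are reported. From each of the 4 wider lists, up to 5 called genes with the smallest p are named, or the gene with the smallest p where none was called, and for Dnmt3a, Tet3 and Uhrf1 the 3 most similar loci. Members and lists were chosen with earlier results of these data known. Alternatives were other pseudocounts, filters, scalings, weights, covariates and a fit of 2 groups, and leaving out each library. The fits within each rat number series were added after seeing the data.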

Additional observations from a re-analysis of the deposited data

How the results depend on the processing

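Counts of called members and of called genes in the wider lists changed with the setting, and so did the share of all tested loci called. In HS_SCR minus 0.4% salt, 3 members were called, against 1 with no filter on low values, 5 with library weights, 1 in the fit of the 2 groups only, 1 with the number series as a factor, 0 with the proximal tubule score in the model and 0 to 5 when 1 library was left out. The share of all tested loci called was 13.1%, against 6.73%, 28%, 3.25%, 9.2% and 0% in these 5 fits, and 2.42% to 36.2% when 1 library was left out. For the wider lists, 7 genes were called, against 19 with library weights, 1 in the fit of the 2 groups, 3 with the series as a factor, 0 with the proximal tubule score, 2 within the higher rat number series and 0 to 25 when 1 library was left out. In HS_DT minus HS_SCR no member was called, against 3 with library weights, 1 within the lower series and 0 to 3 without 1 library; for the wider lists these were 2, 3 and 0 to 10. The share of all tested loci called was 0.00697%, against 10.4%, 7.37% and 0% to 16% in these fits. In HS_DT minus 0.4% salt, library weights called 3 members and 5 genes of the wider lists, beside 12.6% of all tested loci, and leaving out 1 library called 0. The F test called 1 member, against 5 with library weights (27.4% of all tested loci), 0 with no filter, with the proximal tubule score, with the locus width trend removed (lowess, span 0.3) and with the replicate block, and 0 to 4 without 1 library. Without HS_SCR replicate 3 the counts were the highest of the leave-out fits; without 0.4% salt replicate 1 or 2 no member was called against 0.4% salt. The cause of these changes was not tested.

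With the replicate number as a block, 3 members were called in HS_SCR minus 0.4% salt (Dnmt3a, Tet2 and Gadd45b) and none in the other comparisons. The labels do not say that the numbers pair rats: residuals of same-numbered libraries correlated above 0.1 in 5 of 9 pairs (-0.076 to 0.26). Those of differently numbered libraries ran from -0.31 to 0.24. These values do not settle whether the numbers pair rats.

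Changes that turned direction were small and not called, except that Tet1 rests on the entry chosen. The log2 change of Tet1 summed over both entries was -0.35 in HS_SCR minus 0.4% salt, 0.26 in HS_DT minus HS_SCR and -0.0889 in HS_DT minus 0.4% salt. The merged Dnmt1,S1pr2 locus in HS_SCR minus 0.4% salt turned to 0.0014 with library weights, 0.0578 with the width trend removed, and 0.0406, 0.0073 and 0.0083 (range without 1 library -0.0523 to 0.0406) without 0.4% salt replicate 3, HS_SCR replicate 2 and HS_SCR replicate 3. Tdg turned to -0.037 in HS_SCR minus 0.4% salt with the proximal tubule score, and in HS_DT minus HS_SCR to -0.0203 without HS_SCR replicate 3 and -0.0224 without HS_DT replicate 1 (range -0.0224 to 0.085). In HS_DT minus HS_SCR, Tet2 turned to -0.00028 with the proximal tubule score and to -0.0029 within the higher series, and Tet3 to -0.0453 within the higher series. In HS_DT minus 0.4% salt, the series as a factor turned Tet3 to 0.0073, Uhrf1 to -0.0274 and Mbd2 to -0.017. Mbd2 there also turned to -0.0035 with quantile normalization, -0.021 with the proximal tubule score, -0.13 within the higher series, and -0.0056, -0.0096 and -0.00033 without 0.4% salt replicate 3, HS_DT replicate 1 and HS_DT replicate 2 (range -0.0096 to 0.123). The depth of the libraries is unknown, so the precision of levels under 1 FPKM (Dnmt3b, Tet1) cannot be stated.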
